A study of Mus musculus with 6 samples.

Results

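The genes examined here are 36 genes of the cell division cycle, followed in brain microvessels of wild-type (WT) mice and of TEKCRIF1 knockout (KO) mice. They were taken by gene symbol from a list fixed by role, and all 36 were found among the 23183 symbols in each library and among the 14247 genes that passed the expression filter. They comprise 8 G1 cyclins and cyclin-dependent kinases, *Rb1* and *E2f1*, 3 inhibitors of cyclin-dependent kinases, 10 genes of S phase and 13 genes of G2 and mitosis. WT mice carried TEK-cre with *Crif1* +/+ and KO mice carried TEK-cre with *Crif1* flox/flox, so that both groups expressed the recombinase and only the KO group lost *Crif1* (*Gadd45gip1*), which encodes a protein of the mitochondrial ribosome, in the cells where Tek is active. Tek drives Cre in endothelial cells and is also known to be active in blood lineages. The strain is labelled C57BL/6, the age of the mice is not given in the sources used here, and no treatment is named. RNA of microvessels from 3 mice per genotype was sequenced, with 1 library per mouse. A microvessel preparation holds pericytes, smooth muscle cells and astrocyte endfeet beside endothelial cells, and fewer cells of a type and less RNA per cell cannot be told apart in such bulk samples.

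A dividing cell passes from G1 through DNA replication in S phase and through G2 into mitosis. D-type cyclins with CDK4 or CDK6, and then E-type cyclins with CDK2, phosphorylate the retinoblastoma protein RB, which releases E2F factors and starts transcription of the replication genes. Genes of G2 and mitosis are transcribed later in the cycle and are held down in resting cells by complexes that bind the CHR element of their promoters. Most endothelial cells of the adult brain are quiescent, and transcripts such as *Mki67* are widely used to mark the few cells that cycle.

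*Gadd45gip1* measured 18.8, 15.3 and 16.5 FPKM (fragments mapped to a gene, scaled to its length and to library size) in the WT libraries 1 to 3 against 10.8, 7.54 and 10.4 in the KO libraries 1 to 3, the order used throughout, so every KO library lay below every WT library (log2 fold change -0.77, limma p = 0.00534, adjusted p = 0.841, exact permutation p = 0.1). Depth, estimated from the spacing of the smallest FPKM values, was about 6400000 to 11800000 fragments per library and was lowest in KO 2. Endothelial markers were abundant, with a summed level of 1016 to 1354 FPKM over 8 genes in WT mice and 895.7 to 1205 FPKM in KO mice, and 1 of the 8, *Cdh5*, was lower at an unadjusted limma p under 0.05, where 3.11% of all genes tested were. The columns of KO 1 and KO 2 have headings without the hyphen that the remaining 4 have, and what this reflects is not stated.

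The S phase and the mitosis genes differ in their promoters. RefSeq promoters of GRCm38.p6, from 250 bases before to 50 bases after each annotated start, were found for 28 of the 36 genes, in 31 windows. *Aurkb*, *Ccna2*, *Ccnd1*, *Ccnd2*, *Ccne2*, *Cdkn1c*, *Mcm4* and *Rb1* had no entry. Both strands were searched for an E2F site (TTTCCCGC, TTTCGCGC, TTTGCCGC or TTTGGCGC), for the CHR element (TTTGAA or TTCGAA, the latter reading the same on both strands) and for the CCAAT box bound by NF-Y. An E2F site was present in 4 of 10 windows of S phase genes (40%), in 1 of 11 windows of mitosis genes (9.09%) and in 2.26% of all 32851 promoters. The CHR was present in 9 of 11 windows of mitosis genes (81.8%), in 2 of 10 windows of S phase genes (20%) and in 19.2% of all promoters. The CCAAT box was present in 90% and 90.9% of the S phase and mitosis windows, against 37.4% of all promoters. The same order was seen in cell cycle genes outside the 36: the CHR was in 70% of 40 windows of other mitosis genes and in 12.9% of 31 windows of other S phase genes, where the E2F site was in 35.5%. A match is a description of the letters and not evidence of binding. The 4 stretches below show both kinds of promoter, 2 of S phase genes with E2F sites and 2 of mitosis genes with CHR elements. They lie upstream of the RefSeq start (5′ to 3′ on the gene's strand), and capitals mark the E2F, CHR and CCAAT letters, on either strand and including overlaps.
Mcm6 (chr1:128359736-128359875, minus strand, bases -170 to -31): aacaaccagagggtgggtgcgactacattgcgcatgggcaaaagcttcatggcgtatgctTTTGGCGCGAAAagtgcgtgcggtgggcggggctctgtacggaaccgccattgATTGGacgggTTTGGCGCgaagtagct
Mcm5 (chr8:75109349-75109508, plus strand, bases -160 to -1): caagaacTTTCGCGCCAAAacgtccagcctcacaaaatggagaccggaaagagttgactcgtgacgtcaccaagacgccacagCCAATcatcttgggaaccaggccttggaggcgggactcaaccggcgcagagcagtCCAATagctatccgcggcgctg
Cdk1 (chr10:69352913-69353062, minus strand, bases -150 to -1): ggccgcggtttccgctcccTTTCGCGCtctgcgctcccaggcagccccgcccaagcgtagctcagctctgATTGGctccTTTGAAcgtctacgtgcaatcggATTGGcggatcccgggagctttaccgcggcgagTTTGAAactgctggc
Mki67 (chr7:135716400-135716579, minus strand, bases -200 to -21): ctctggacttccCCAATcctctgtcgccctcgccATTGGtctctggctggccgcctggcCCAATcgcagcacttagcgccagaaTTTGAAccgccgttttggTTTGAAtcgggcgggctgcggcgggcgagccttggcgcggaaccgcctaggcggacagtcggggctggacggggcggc
The *Mcm6* stretch holds 3 E2F matches, of which the first pair overlap on opposite strands, and the *Mcm5* stretch holds 2 that overlap. The *Cdk1* stretch holds 1 E2F site and 2 CHR elements, and the *Mki67* stretch holds 2 CHR elements and no E2F site.

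**Figure D1:**
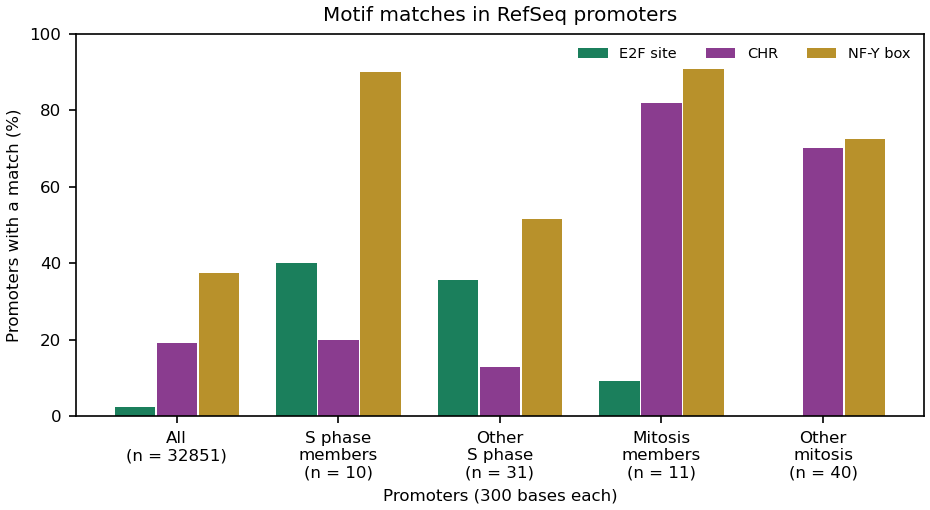
Share of RefSeq promoters (%, y axis) with at least 1 match to an E2F site, the CHR or the NF-Y (CCAAT) box, for all promoters and for 4 sets of cell cycle genes (x axis, n promoters of 300 bases each). The CHR reaches 81.8% in mitosis members and 19.2% in all promoters, and the E2F site 40% in S phase members and 2.26% in all promoters.

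No change was detected in any of the 36 genes between KO and WT mice. With limma on log2(FPKM + 1), 0 of the 36 had an unadjusted p under 0.05, where 5.88% of all genes tested did (2.77% higher and 3.11% lower in KO mice), and 0 had an adjusted p under 0.05, where 0 of all genes did. KO levels exceeded WT levels for 18 of the 36 genes and fell short of them for 18, and their median log2 fold change was -0.02, against -0.01 over all genes tested. The largest log2 fold changes were 0.60 for *Cdk1* and -0.46 for *Cdk6*. The 3 KO values and the 3 WT values did not overlap for 2 of the 36 genes (5.56%), where 11.1% of all genes tested did not overlap. Both of these, *Mcm6* and *Cenpf*, were lower in KO mice, where 5.7% of all genes tested were lower without overlap, and had exact permutation p = 0.1, the smallest that 3 mice against 3 allow.

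The precision of these differences was limited by the spread between mice. The 95% interval of the log2 fold change held 0 for all 36 genes, and for 29 genes it lay within a 2-fold change in either direction. For *Ccne2*, *Cdk6*, *Cdk1*, *Birc5*, *Aurkb*, *Cenpa* and *Cenpf* it reached past 2-fold on 1 side. The median SD within groups was 0.31 on the log2 scale for the 36 genes and 0.33 for all genes tested. Between the lowest and the highest of the 6 libraries a gene varied from 1.39-fold to 5.78-fold, with a median of 1.9-fold. If each gene is read as its longest annotated protein-coding transcript, 23 of the 36 genes had at least 100 fragments in every library, and 7 had fewer than 50 in at least 1 library. No gene of the list was at 0 in any library.

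**Figure D2:**
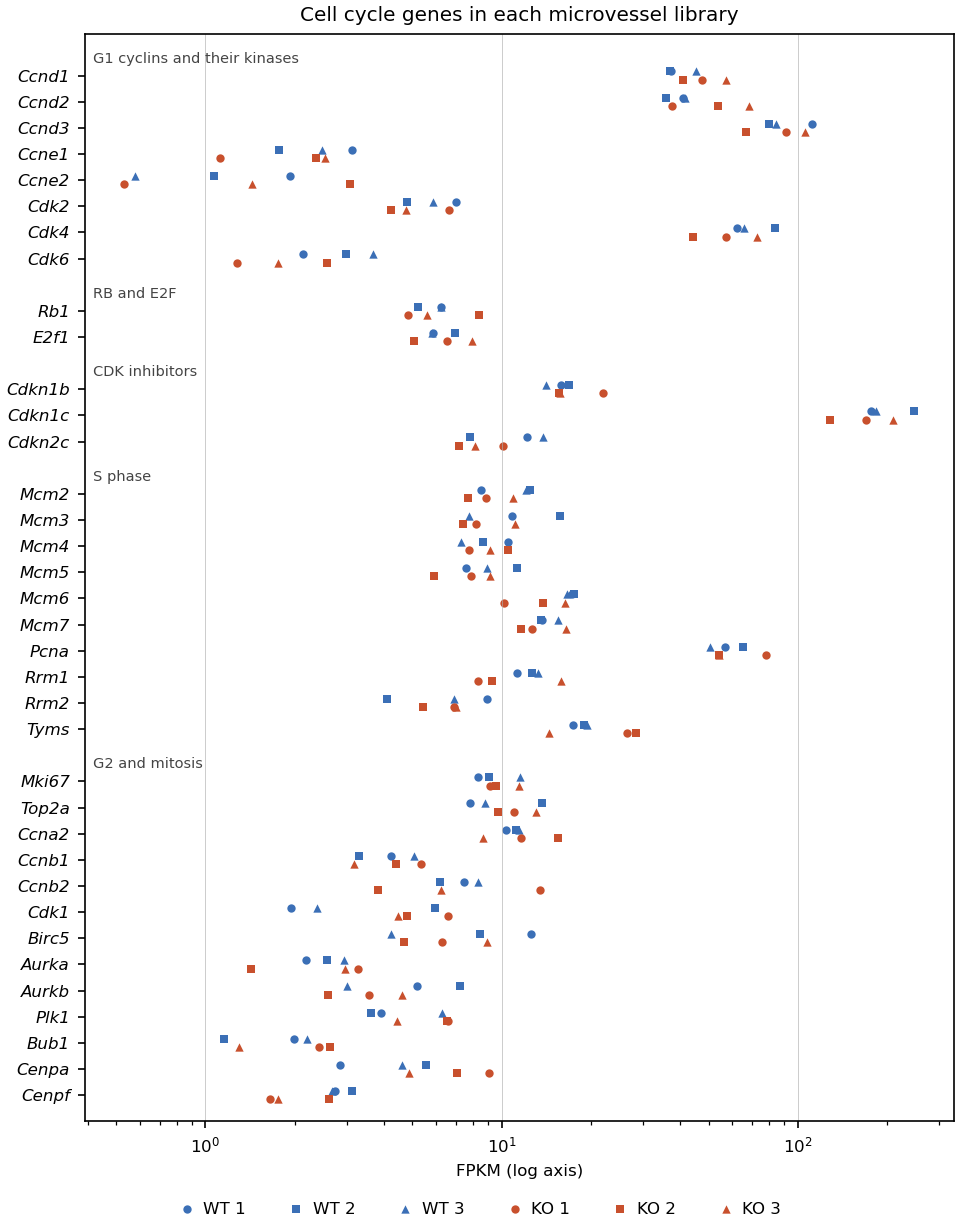
Level of each of the 36 genes (rows, grouped by role) in FPKM on a log axis, with 1 point per library: WT in blue, KO in orange, and the symbol giving the replicate number. The WT and KO points interleave in all rows except *Mcm6* and *Cenpf*, and levels span 0.531 to 247 FPKM.

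The G1 genes held the most abundant transcripts of the list after *Cdkn1c*. *Ccnd3*, the D-type cyclin with the highest level, measured 111.8, 79.9 and 84.5 FPKM in the WT libraries against 91.5, 67.1 and 105.4 in the KO libraries. These values overlapped across their range (log2 fold change -0.07, standard error 0.23, limma p = 0.763, exact permutation p = 0.9). Cyclin D1 (*Ccnd1*) measured 37.4, 36.9 and 45.2 FPKM in the WT libraries against 47.5, 41.0 and 57.1 in the KO libraries, and only KO 2 fell inside the WT range (log2 fold change 0.27, limma p = 0.209, exact permutation p = 0.2). Cyclin D2 (*Ccnd2*) measured 40.8, 35.96 and 41.8 FPKM in the WT libraries against 37.6, 53.8 and 68.5 in the KO libraries. KO 2 and KO 3 lay above every WT mouse and KO 1 lay among them, and the log2 fold change was 0.38 (95% interval -0.14 to 0.91, limma p = 0.137, exact permutation p = 0.3). Leaving out 1 library at a time, the log2 fold change of *Ccnd2* ran from 0.19 without KO 3 to 0.61 without KO 1, the KO library that overlapped WT mice. Without KO 1 it had an unadjusted limma p of 0.0254 and an adjusted p of 1, where 3.71% of all genes had an unadjusted p under 0.05.

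Of the kinases that pair with D cyclins, *Cdk4* was far more abundant than *Cdk6* in every library, with a ratio of FPKM from 17.1 to 45. *Cdk4* measured 62.2, 83.9 and 65.9 FPKM in the WT libraries against 57.2, 44.2 and 72.9 in the KO libraries (log2 fold change -0.30, 95% interval -0.82 to 0.22, limma p = 0.234, exact permutation p = 0.4). *Cdk6* measured 2.13, 2.98 and 3.67 FPKM in the WT libraries against 1.27, 2.58 and 1.75 in the KO libraries. Only KO 2 reached the WT range, and the log2 fold change was -0.46 (95% interval -1.18 to 0.27, limma p = 0.189, exact permutation p = 0.2). The E-type cyclins, which act with CDK2 at the entry into S phase, were much lower than the D-type cyclins. The summed level of the D cyclins was between 29.8 and 107 times that of the E cyclins. *Ccne1* averaged 2.46 ± 0.67 FPKM in the WT group against 2.01 ± 0.77 in the KO group (SD, n = 3). *Ccne2*, the lowest gene of the list, measured 1.94, 1.07 and 0.577 FPKM in the WT libraries against 0.531, 3.07 and 1.43 in the KO libraries, and its lowest value corresponds to about 13 fragments. The KO mice held both the lowest and the highest *Ccne2* value, so no direction was detectable at this depth. *Cdk2* averaged 5.89 ± 1.10 FPKM in the WT group against 5.21 ± 1.27 in the KO group (SD, n = 3), a difference smaller than either SD.

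*Rb1*, which encodes the RB protein, measured 6.23, 5.23 and 6.25 FPKM in the WT libraries against 4.84, 8.41 and 5.59 in the KO libraries. *E2f1*, an activator of replication genes and itself an E2F target, measured 5.85, 6.96 and 5.83 FPKM in the WT libraries against 6.52, 5.04 and 7.97 in the KO libraries. For both genes the KO values spanned the WT values on both sides, and the log2 fold changes were 0.05 and 0.04 (exact permutation p = 0.9 and p = 1).

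*Cdkn1c*, which encodes the inhibitor p57, was the most abundant of the 36 genes, above 97.9% of all genes tested. It measured 176.2, 247.3 and 183.8 FPKM in the WT libraries against 170.3, 128.3 and 209.2 in the KO libraries. The KO 1 and KO 2 values lay below every WT mouse and KO 3 lay among them (log2 fold change -0.27, 95% interval -0.83 to 0.29, limma p = 0.309, exact permutation p = 0.4). *Cdkn1b*, which encodes p27, averaged 15.6 ± 1.4 FPKM in the WT group against 17.8 ± 3.65 in the KO group (SD, n = 3). The highest *Cdkn1b* value was 22.0 FPKM in KO 1, and the other KO mice lay within the WT range. The level of *Cdkn1c* was 11.1 to 14.7 times that of *Cdkn1b* in WT mice and 7.73 to 13.2 times in KO mice. *Cdkn2c*, which encodes the CDK4 and CDK6 inhibitor p18, measured 12.2, 7.81 and 13.8 FPKM in the WT libraries against 10.1, 7.20 and 8.13 in the KO libraries, with overlap through WT 2 (log2 fold change -0.35, limma p = 0.205, exact permutation p = 0.3).

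Among S phase genes, 6 of 10 were lower and 4 higher in KO mice, 0 had an unadjusted limma p under 0.05, and the median log2 fold change was -0.13. The 6 MCM subunits form the helicase that opens DNA at replication origins. The gene *Mcm6* lies at chr1:128331590-128359664 on the minus strand of GRCm38. *Mcm6* measured 17.2, 17.5 and 16.6 FPKM in the WT libraries against 10.2, 13.8 and 16.4 in the KO libraries. The WT mice lay close together and the KO mice spread below them, with KO 3 just under the lowest WT value. The log2 fold change of *Mcm6* was -0.35 (95% interval -0.84 to 0.14, limma p = 0.145, adjusted p = 0.848, exact permutation p = 0.1), and the groups overlapped under trimmed-mean scaling, median scaling and a transcript length correction. *Mcm2*, *Mcm3* and *Mcm5* had log2 fold changes of -0.24, -0.30 and -0.25, *Mcm7* -0.08 and *Mcm4* 0.05, and all 5 overlapped between groups (limma p of 0.311 or higher). The means of the MCM genes over all libraries ran from 8.46 FPKM for *Mcm5* to 15.3 FPKM for *Mcm6*.

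*Pcna*, the sliding clamp of DNA polymerases and also a repair factor, was the highest S phase gene, with 57.0, 65.2 and 50.7 FPKM in the WT libraries against 78.4, 54.2 and 54.3 in the KO libraries. KO 1 was the highest library and the other KO mice fell inside the WT range (log2 fold change 0.10, limma p = 0.669, exact permutation p = 0.7). The ribonucleotide reductase genes *Rrm1* and *Rrm2*, which supply deoxynucleotides, had log2 fold changes of -0.19 and 0.01 (exact permutation p = 0.5 and p = 0.9). *Tyms*, which encodes thymidylate synthase, measured 17.4, 18.9 and 19.5 FPKM in the WT libraries against 26.6, 28.5 and 14.4 in the KO libraries. KO 1 and KO 2 lay above every WT mouse while KO 3 lay below every one (log2 fold change 0.25, 95% interval -0.33 to 0.83, limma p = 0.364, exact permutation p = 0.4). Leaving out 1 library at a time, it ran from 0.0765 without KO 2 to 0.55 without KO 3, the library that went against the other KO mice. Without KO 3 *Tyms* had an unadjusted limma p of 0.0258 and an adjusted p of 0.712, where 6.97% of all genes had an unadjusted p under 0.05.

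Among genes of G2 and mitosis, 8 of 13 were higher and 5 lower in KO mice, 0 had an unadjusted limma p under 0.05, and the median log2 fold change was 0.06. This median was -0.01 under a correction for GC content and -0.017 without WT 2. *Mki67*, which encodes the proliferation antigen Ki-67, measured 8.29, 9.07 and 11.6 FPKM in the WT libraries against 9.12, 9.60 and 11.5 in the KO libraries. The KO values lay entirely within the WT range (log2 fold change 0.06, 95% interval -0.43 to 0.55, limma p = 0.779, exact permutation p = 0.7), which on the linear scale of FPKM + 1 is a ratio of 1.04 with an interval of 0.744 to 1.47. *Top2a*, the topoisomerase that untangles chromosomes, measured 7.85, 13.6 and 8.78 FPKM in the WT libraries against 11.0, 9.70 and 13.03 in the KO libraries, again within the WT range (log2 fold change 0.17, limma p = 0.515, exact permutation p = 0.6). *Ccna2*, encoding cyclin A2, was the highest gene of this group, with 10.3, 11.2 and 11.4 FPKM in the WT libraries against 11.7, 15.4 and 8.63 in the KO libraries. KO 2 was the highest and KO 3 the lowest of the 6 libraries for *Ccna2* (log2 fold change 0.08, limma p = 0.76, exact permutation p = 0.7).

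The gene *Cdk1* lies at chr10:69335146-69352938 on the minus strand of GRCm38. *Cdk1*, the kinase that drives entry into mitosis, measured 1.94, 5.94 and 2.38 FPKM in the WT libraries against 6.60, 4.78 and 4.46 in the KO libraries. The KO mice were all above WT 1 and WT 3, and WT 2 lay among them. The log2 fold change was 0.60 (95% interval -0.19 to 1.39, limma p = 0.12, adjusted p = 0.843, exact permutation p = 0.3). With 1 library left out it ran from 0.36 without WT 1 to 0.98 without WT 2, the WT library that overlapped KO mice. Without WT 2 *Cdk1* had an unadjusted limma p of 0.0139 and an adjusted p of 1, where 3.16% of all genes had an unadjusted p under 0.05. Its cyclin partners *Ccnb1* and *Ccnb2* had log2 fold changes of 0.02 and -0.06. *Ccnb2* measured 7.47, 6.21 and 8.34 FPKM in the WT libraries against 13.5, 3.83 and 6.25 in the KO libraries, with both extremes in the KO group.

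The gene *Cenpa* lies at chr5:30666777-30674830 on the plus strand of GRCm38. *Cenpa*, the histone H3 variant that marks centromeres, measured 2.84, 5.54 and 4.62 FPKM in the WT libraries against 9.06, 7.05 and 4.88 in the KO libraries. KO 1 and KO 2 lay above every WT mouse and KO 3 lay among them. Its log2 fold change of 0.58 (95% interval -0.08 to 1.25) gave the smallest unadjusted p of the list (limma p = 0.0799, adjusted p = 0.841, exact permutation p = 0.2). With 1 library left out it ran from 0.36 without WT 1 to 0.79 without KO 3, the KO library that overlapped WT mice. Without KO 3 *Cenpa* had an unadjusted limma p of 0.0325 and an adjusted p of 0.712, where 6.97% of all genes had an unadjusted p under 0.05. The gene *Cenpf* lies at chr1:189640606-189688086 on the minus strand of GRCm38. *Cenpf*, which encodes a kinetochore protein, measured 2.74, 3.13 and 2.67 FPKM in the WT libraries against 1.65, 2.61 and 1.76 in the KO libraries. The highest KO value lay just under the lowest WT value, and the log2 fold change was -0.37 (95% interval -1.03 to 0.29, limma p = 0.242, exact permutation p = 0.1). *Cenpf* and *Cenpa*, both centromere or kinetochore genes with a CHR in their promoters, thus had opposite signs.

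The mitotic kinases likewise had both signs. *Plk1* had a log2 fold change of 0.30 and *Bub1*, of the spindle checkpoint, 0.16, while *Aurka* had -0.04 and *Aurkb* -0.38 (limma p from 0.269 to 0.9). *Birc5*, which encodes survivin, a partner of AURKB in the chromosomal passenger complex, measured 12.6, 8.43 and 4.24 FPKM in the WT libraries against 6.31, 4.68 and 8.96 in the KO libraries. WT 1 and WT 3 were the highest and the lowest library for *Birc5*, and its log2 fold change was -0.23 (limma p = 0.533, exact permutation p = 0.8).

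**Figure D3:**
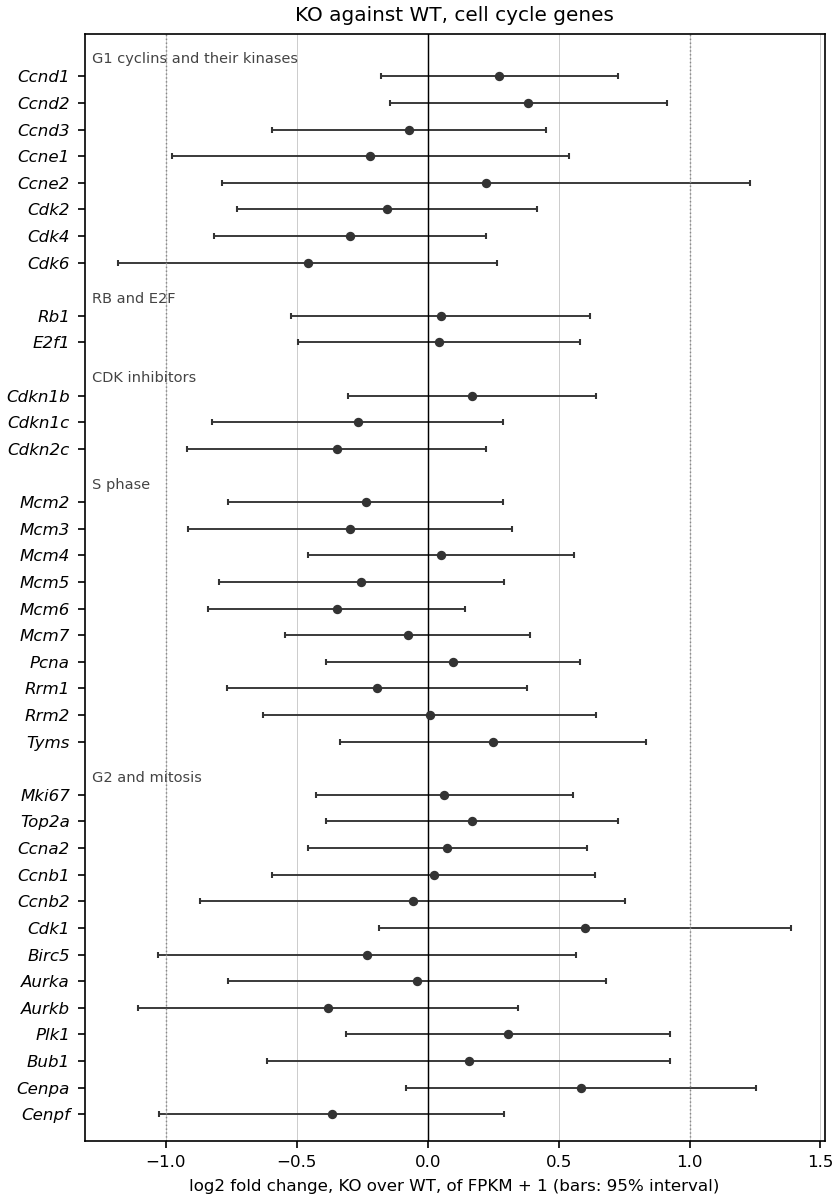
Log2 fold change of KO over WT on log2(FPKM + 1) (x axis) for the 36 genes (rows, grouped by role); points are limma estimates and bars their 95% intervals, with dotted lines at a 2-fold change. All 36 bars cross 0, and estimates run from -0.46 (*Cdk6*) to 0.60 (*Cdk1*).

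S phase and mitosis genes were set side by side within each library as the median deviation of their genes from each gene's own mean over the 6 libraries. For the S phase genes it was -0.02, 0.13 and 0.10 in the WT libraries 1 to 3 on the log2 scale, against -0.13, -0.22 and 0.12 in the KO libraries 1 to 3. For the mitosis genes it was -0.12, 0.03 and 0.12 in the WT libraries against 0.24, 0.06 and -0.12 in the KO libraries. By these medians the S phase genes were below and the mitosis genes above their means in KO 1 and KO 2. In KO 3 the order was the opposite. Above their own means were 3, 2 and 8 of 10 S phase genes and 9, 7 and 6 of 13 mitosis genes in KO 1 to 3. The 35 S phase genes tested outside the 36 did not follow this order, with median deviations of 0.16, -0.001 and -0.016 in KO 1 to 3. Nor did the 41 mitosis genes tested outside the 36, at 0.011, -0.024 and 0.029. KO and WT mice overlapped in both groups of members. KO 1 and KO 2 are the libraries with the differently written headings and had the lowest estimated depths, against the highest for KO 3, and their part in this pattern was not tested. The median log2 fold change of the S phase genes was -0.059 without KO 1, -0.071 without KO 2 and -0.29 without KO 3, and that of the mitosis genes 0.07, 0.09 and 0.07. Without KO 3, 11 of the 36 genes did not overlap between groups, where 23.6% of all genes tested did not. Members with a CHR in the promoter had a median log2 fold change of 0.06 (11 genes, from -0.37 to 0.60), against -0.19 without one (17 genes, from -0.46 to 0.25). Members with an E2F site had a median of -0.20 (6 genes, from -0.35 to 0.60), against -0.02 without one (22 genes, from -0.46 to 0.58). The 6 were *Cdk1*, *Cdk2*, *Mcm3*, *Mcm5*, *Mcm6* and *Mcm7*, and *Cdk1* and *Mcm7* had both elements.

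**Figure D4:**
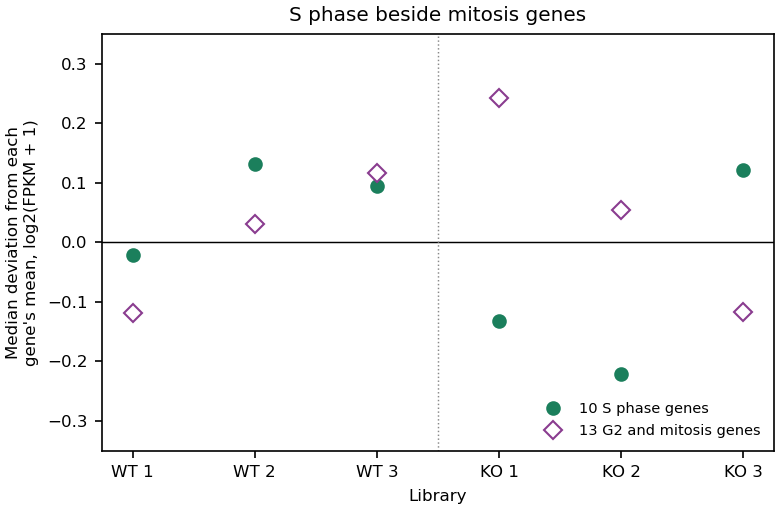
Median deviation of the 10 S phase genes (filled circles) and the 13 G2 and mitosis genes (open diamonds) from each gene's mean over the 6 libraries, on log2(FPKM + 1) (y axis), for each library (x axis). S phase genes lie lowest in KO 2 (-0.22) and mitosis genes highest in KO 1 (0.24), while KO 3 shows the opposite order.

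Other cell cycle genes were taken from 3 lists written by textbook role, with 107 of 112 genes tested. *Cdc6*, *Orc1*, *Exo1*, *Aspm* and *Cdkn2a* fell below a mean of 1 FPKM. Of the 107, 55 were higher and 52 lower in KO mice, 2 had an unadjusted limma p under 0.05 (1.87%), both lower, where 3.11% of all genes tested were called lower, and the median log2 fold change was 0.01. Those 2 were mitosis genes. *Cks2*, which encodes a subunit of cyclin-dependent kinase complexes, measured 8.96, 11.2 and 8.44 FPKM in the WT libraries against 8.48, 3.73 and 4.99 in the KO libraries (log2 fold change -0.70, limma p = 0.0354, adjusted p = 0.841, exact permutation p = 0.2). *Racgap1*, needed for cytokinesis, measured 8.15, 7.84 and 10.9 FPKM in the WT libraries against 5.07, 4.50 and 7.22 in the KO libraries, with no overlap (log2 fold change -0.60, limma p = 0.0366, adjusted p = 0.841, exact permutation p = 0.1). Among 41 other mitosis genes 18 were higher and 23 lower, and among 35 other S phase genes 20 were higher and 15 lower. The list medians were -0.11 for other mitosis genes and 0.06 for other S phase genes, and the latter was -0.041 without KO 1. The median of other mitosis genes ran from -0.082 to -0.022 with 1 library left out, nearest 0 without WT 2, and was -0.20 at a minimum mean of 5 FPKM. Groups did not overlap for 5 of the 107 genes (4.67%), against 11.1% of all genes tested. Beside *Racgap1* these were *Uhrf1*, *Smc4* and *Rbl1*, higher in KO mice, and *Hmmr*, lower, which are named after their values were seen and had limma p of 0.166 or higher. Of all genes tested, 5.37% were higher and 5.7% lower without overlap. The stress-responsive inhibitor gene *Cdkn1a* measured 43.8, 39.2 and 35.1 FPKM in the WT libraries against 80.6, 23.9 and 53.9 in the KO libraries, with both extremes in the KO group (limma p = 0.497, exact permutation p = 0.7).

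Replication-dependent histone genes, which are transcribed in S phase, are numerous and nearly identical in sequence, so that reads can be split among copies and single values are uncertain. Histone genes were taken here by symbol alone, from Hist1h to Hist4h, and were not selected for expression in S phase. Of 68 genes with such symbols 46 passed the filter. Of these, 8 were listed at 0 in every WT library and passed it through their KO values alone, which fixed their direction, and the 7 histone genes with an unadjusted limma p under 0.05 were all among these 8, so that no fold or count is read from them. *Hist1h2bh*, *Hist1h3d*, *Hist1h3g*, *Hist4h4*, *Hist1h4m* and *Hist2h2ab* are 6 of these 7. *Hist1h2bh*, for example, was at 0 in every WT library and measured 2.65, 2.18 and 4.99 FPKM in the KO libraries. The summed level over all 68 genes overlapped between groups, at 203.5, 312.1 and 217.6 FPKM in the WT libraries against 383.6, 366.7 and 213.4 in the KO libraries. KO 3, the KO library in which the S phase genes stood highest, had a histone sum within the WT range.

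Several cell types that can divide in the adult brain were followed through their markers. The summed level of 5 oligodendrocyte precursor markers was 48.3 to 58.4 FPKM in the WT group against 36.04 to 44.4 in the KO group, and all 4 that were tested were lower (1 with an unadjusted limma p under 0.05, where 3.11% of all genes tested were lower at that p). That of 6 neural progenitor and neuroblast markers was 63.0 to 74.3 FPKM in the WT group against 51.1 to 60.6 in the KO group (4 of 5 tested lower). That of 6 microglia and macrophage markers was 94.95 to 111.9 FPKM in the WT group against 77.6 to 86.2 in the KO group (4 of 6 lower). These 3 sums did not overlap between groups, but an FPKM sum is carried by its most abundant genes. Gene by gene, 1 of 4 precursor, 0 of 5 progenitor and 1 of 6 microglia markers tested did not overlap, where 11.1% of all genes tested did not. The median deviation of the progenitor markers from their own means was 0.11, 0.16 and 0.29 in the WT libraries against -0.34, 0.80 and -0.80 in the KO libraries on the log2 scale, with both extremes in the KO group. For the precursor markers it was 0.203, 0.134 and 0.371 in the WT libraries against -0.198, -0.035 and -0.4 in the KO libraries. For the microglia and macrophage markers it was 0.104, 0.014 and 0.075 against -0.297, -0.107 and -0.066. Neither of these last lists overlapped between groups on this measure. Sums also did not overlap for fibroblast markers (1205 to 1809 against 800 to 1105 FPKM) and astrocyte markers (547.1 to 614.4 against 402.5 to 448.4 FPKM), with 2 of 5 genes not overlapping in each list. Choroid plexus markers were higher in KO mice for 5 of 5 genes (2 with an unadjusted limma p under 0.05, where 2.77% of all genes tested were higher at that p), with sums of 3049 to 3692 FPKM in WT mice and of 9352, 3300 and 11170 FPKM in KO 1, KO 2 and KO 3. Sums of pericyte, smooth muscle, neuron, oligodendrocyte and erythroid markers overlapped between groups. Gene by gene, 2 of 6 pericyte, 1 of 5 oligodendrocyte and 0 smooth muscle, neuron or erythroid markers did not overlap. At an unadjusted limma p under 0.05, 2 of 5 astrocyte, 2 of 5 oligodendrocyte and 1 of 5 fibroblast markers were lower. So were 1 of 6 pericyte, 1 of 6 neuron and 1 of 5 erythroid markers tested, and 0 smooth muscle, progenitor or microglia markers. Of all genes tested 3.11% were lower at that p. Of all these markers only *Hbb-bs* and *Klf1*, of red blood cells, were at 0 in any library, and *Hbb-bs* was at 0 in WT 1 and in every KO library. Which cells carried the cell cycle transcripts was not tested.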

How the data were processed

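RNA of cerebral microvessels was extracted with TRIzol and sequenced in paired ends after a directional library preparation (NEBNext Ultra II). The authors trimmed the reads, mapped them with TopHat to mm10 (per the labels) and deposited FPKM values, 1 per gene symbol and library; tool versions, annotation and any normalization between libraries are not given in the sources used here, and read counts were not used here. Since the authors' count-based test needs read counts, log2(FPKM + 1) was tested with limma 3.58.1 (R 4.3.3, trended prior variance, no block) for every gene whose average level across all 6 libraries reached 1 FPKM, with Benjamini-Hochberg adjustment over all genes tested. The fit was tested on simulated data. Fold changes on this scale understate changes of low genes. For single genes all 20 regroupings of the libraries were enumerated in an exact permutation test (two-sided, scipy 1.17.1). Called means an unadjusted p under 0.05. Groups were taken from the sample titles.

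Depth was estimated from the steps of low FPKM values (under 0.3 FPKM) and the lengths of 2246 genes with a single GENCODE M21 transcript, and 3 fragments on a 1 kb transcript correspond to 0.255 to 0.467 FPKM, for counting error only. Transcript length and GC content came from GENCODE M21 (GRCm38), which held 22148 of the 23183 symbols. Values in every library are given for members whose groups did not overlap or that lead a role group, and for *Mki67*, *Top2a*, *Pcna* and *Rb1*. They are also given for *Gadd45gip1*, for genes called in the other cell cycle lists and for others chosen after their values were seen. The genes, lists and motifs were chosen with earlier results of these data known. Alternatives covered the filter, pseudocount, scaling, variance prior, replicate block, GC content, transcript length and each library left out.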

Additional observations from a re-analysis of the deposited data

How the results depend on the processing

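Of 423 values of the 36 genes recomputed on all 6 libraries under 12 other settings, 413 kept their direction and their side of the threshold, and 10 turned sign. Under a correction for GC content these were *Ccnd3* (0.0803), *Ccne2* (-0.0053), *Rb1* (-0.12), *Mcm4* (-0.0402), *Rrm2* (-0.071), *Mki67* (-0.0034), *Ccna2* (-0.000201), *Ccnb1* (-0.098) and *Bub1* (-0.0102), and under quantile normalization *Rrm2* (-0.0026). The number of members whose groups did not overlap fell from 2 to 1 with a minimum mean of 5 FPKM (*Mcm6* remained, 11.6% of all genes apart) and with trimmed-mean or median scaling (*Cenpf* remained, 1 each, 11.1% and 10.7%). It was 3 under a transcript length correction (12%), where *Ccnd2* and *Cdk6* were gained and *Mcm6* was lost. The median of other mitosis genes was -0.20 at a mean of 5 FPKM and -0.18 under the GC correction, where that of the mitosis members turned to -0.01. The cause was not tested.

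Leaving out 1 library at a time, all genes with an unadjusted p under 0.05 numbered 451 (without WT 2) to 1865 (without KO 2), and with an adjusted p under 0.05 from 0 to 6. Members with an unadjusted p under 0.05 numbered 0 to 2 of 36, where 3.16 to 13.2% of all genes did. Members without overlap numbered 4 to 6, and 11 without KO 3, against 16.9 to 30.7% of all genes (23.6% without KO 3), where fewer samples per group make separation more frequent. The median of S phase genes ran from -0.29 to -0.059 and that of other mitosis genes from -0.082 to -0.022. The median of the mitosis members turned to -0.017 without WT 2 and that of other S phase genes to -0.041 without KO 1. Sign changed for *Aurka* (-0.20 to 0.21), *Birc5* (-0.60 to 0.0842), *Bub1* (-0.0166 to 0.36), *Ccna2* (-0.12 to 0.27), *Ccnb1* (-0.12 to 0.19), *Ccnb2* (-0.49 to 0.30), *Ccnd3* (-0.21 to 0.11), *Ccne1* (-0.37 to 0.0146), *Ccne2* (-0.14 to 0.57), *E2f1* (-0.0935 to 0.19), *Mcm4* (-0.065 to 0.17), *Mcm7* (-0.21 to 0.0224), *Mki67* (-0.0285 to 0.19), *Pcna* (-0.0788 to 0.19), *Rb1* (-0.15 to 0.19) and *Rrm2* (-0.26 to 0.22). The other 20 members kept their sign.

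With the replicate number as a block, 871 genes had an unadjusted p under 0.05 against 838 without it, and 0 members. Same-numbered samples correlated at 0.0375, 0.0267 and 0.00159 in their deviations from the group means. Differently numbered samples correlated at -0.0733 to 0.0462. Values this near 0 do not show a pairing by number and cannot exclude one. With 3 mice per group and an interval reaching 0.45 to 1.01 log2 units to each side, smaller differences were not detectable.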
